A study of Homo sapiens with 22 samples.

Results

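Transporters of amino acids and neurotransmitters were examined in RNA-seq of RPTEC, a renal proximal tubule epithelial line immortalized with hTERT. The members are the protein-coding genes whose symbol belongs to the solute carrier families SLC1, SLC3, SLC6, SLC7, SLC36, SLC38 or SLC43, and 59 of the 36859 genes in the deposited table met this rule. The rule used names only and no measured value. There were 22 libraries in 11 groups of 2. In medium with 2% serum were WT cells, WT cells given TGF-β at 10 ng/ml for 72 h, the knockout clones KO1 and KO2 (each a single clone with Cas9-induced frameshifts in SETD2, the enzyme that trimethylates H3K36), and a line labelled KO2 rescue. In medium with 10% serum were Rescue1 and Rescue2, which are blasticidin-selected clones of KO2 cells carrying a lentiviral SETD2, and puromycin-selected WT populations transduced in bulk with eGFP as the control vector or with SOX2, OCT2 or PRRX1. Serum and transduction therefore differed together with SETD2 wherever Rescue1 or Rescue2 is set against KO2, and they cannot be told apart there.

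SETD2 transcript was 1852 and 2061 in WT, 1046 and 1130.0 in KO1, 1049.8 and 1052 in KO2, 10240.3 and 10369 in Rescue1 and 10445 and 9764 in Rescue2, in normalized counts per library. The libraries labelled KO2 rescue held 834 and 819.6, which goes against their label, and they are named by that label throughout. The tubular markers PAX8 (1535 to 6561), PAX2 (404 to 1226) and GGT1 (225 to 1091) were present in every library, whereas HNF4A, SLC22A6 and SLC22A8 were listed at 0 in all of them and LRP2 reached at most 2.29. The WT libraries differed from each other in COL1A1, at 11919 and 532, so changes from WT are given without either library where that ended a call or moved a fold by more than 1.5 times. Markers of fibroblasts and mesangial cells (6 of 6 in the table, mainly COL1A1 and DCN) summed to 1146 to 12740 in WT, 46460 to 47990 with TGF-β, 223300 to 236800 in KO1, 100700 to 104400 in KO2, 40240 to 42590 in the libraries labelled KO2 rescue and 1390 to 2273 in Rescue1 and Rescue2. The transduced WT libraries lay at 3879 to 6246. With TGF-β the sum was mostly COL1A1 (46598 and 45007, DCN 1049 and 1083). It was mostly DCN in KO1 (234809 and 221606, COL1A1 1042 and 815) and KO2 (98373 and 94978, COL1A1 3751 and 3520). ACTA2 and THY1 were called higher than WT in both clones, as was DCN, and not with TGF-β. ACTA2 held 310 and 308 in WT, 739 and 731 in KO1 and 1140 and 1094 in KO2. THY1 held 14.3 and 15 in WT, 203 and 138 in KO1 and 1136 and 1135 in KO2. It was also high in unedited eGFP cells, at 1725 and 1895. PDGFRB did not exceed 63.5 and DES 10.2 in any library. The sums thus do not follow a single shared change of these markers, and their part in the results below was not tested. In bulk RNA, fewer cells of a type and less RNA per cell cannot be told apart.

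Amino acid carriers move substrates by coupling them to sodium or protons, or by exchanging one amino acid for another across the membrane. Several SLC7 carriers are light chains that reach the plasma membrane only when joined to a heavy chain, SLC3A2 or SLC3A1. The proximal tubule is known for reclaiming nearly all filtered amino acids, with apical carriers such as SLC6A19 and the SLC3A1 and SLC7A9 pair for uptake, and the SLC3A2 and SLC7A7 pair for exit of dibasic amino acids on the basolateral side. SLC1 and SLC6 also hold the carriers that clear glutamate, GABA, glycine and monoamines in the nervous system.

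Promoter sequences are shown for SLC7A7, a light chain with large changes in both knockout clones, and for SLC3A2, the heavy chain it shares with SLC7A11. SLC3A2 itself was called in neither clone. The promoters of SLC6A9 and SLC38A10, called in both clones, were searched too and held 0 matches to the motifs named below. Each line holds the 250 bases before a RefSeq start site, 5′ to 3′ on the strand of the gene, from GRCh38.p14. Only 1 start site per gene was searched, and both windows shown lie inside the gene bounds given below. SLC7A7 lies on the minus strand at chr14:22819792-22820041 and SLC3A2 on the plus strand at chr11:62881449-62881698. Capitals mark matches to the core of the antioxidant response element, TGACNNNGC, searched on both strands.
SLC7A7: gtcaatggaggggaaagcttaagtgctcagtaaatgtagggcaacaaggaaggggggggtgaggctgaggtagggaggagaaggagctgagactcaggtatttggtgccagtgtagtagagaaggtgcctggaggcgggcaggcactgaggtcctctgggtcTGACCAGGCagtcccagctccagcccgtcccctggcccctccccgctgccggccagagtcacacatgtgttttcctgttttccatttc
SLC3A2: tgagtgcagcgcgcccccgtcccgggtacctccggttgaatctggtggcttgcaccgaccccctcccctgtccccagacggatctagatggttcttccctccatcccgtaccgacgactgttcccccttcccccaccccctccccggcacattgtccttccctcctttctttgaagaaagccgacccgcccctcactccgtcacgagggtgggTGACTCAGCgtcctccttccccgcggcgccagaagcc
The match began 88 bases upstream of the start in SLC7A7 and 37 bases upstream in SLC3A2, where it overlaps an AP-1 site (TGANTCA). RefSeq promoters were matched for 44 of the 59 members. SLC7A11, SLC43A3 and SLC6A15 were not among the 44, so their promoters were not searched. Of the 44, 4 (9.1%, SLC3A2, SLC7A1, SLC7A6 and SLC7A7) held the antioxidant core, against 11.0% of all 27305 promoters. The core of the amino acid response element, TGATGNAA, was in 1 of the 44 (2.3%, SLC1A3) against 3.2% of all. The AP-1 site was in 7 of 44 (15.9%, SLC38A1, SLC3A2, SLC43A2, SLC6A14, SLC6A17, SLC6A5 and SLC7A8) against 6.6% of all. A match describes these letters only.

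Of the 59 members, 31 reached 10 normalized counts in 2 or more libraries and were tested, and 28 did not. Of the 28, 13 were listed at 0 in every library. They include SLC6A19 and SLC6A18, carriers of neutral amino acids and of glycine in the tubular brush border, the noradrenaline carrier SLC6A2, the dopamine carrier SLC6A3, the glycine carrier SLC6A5 and the cationic carrier SLC7A3, besides SLC38A8, SLC6A11, SLC6A14, SLC6A7, SLC7A10, SLC7A13 and SLC7A14. The other 15 included SLC1A1, SLC1A2, SLC1A6, SLC1A7, SLC36A2, SLC36A3, SLC38A4, SLC38A5, SLC6A17, SLC6A20, SLC6A4, SLC7A1, SLC7A4 and SLC7A9. Their highest value in any library was 41.2, for SLC6A20, a carrier of proline and other imino acids, in KO1, where its libraries held 6.8 and 41.2. The apical carriers SLC6A18, SLC6A19, SLC6A20 and SLC7A9 were thus listed at or near 0 in most libraries. Such values do not show that a gene was silent, since VARS1, the valyl-tRNA synthetase that every cell needs, was also listed at 0 to 9.83.

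Per kilobase of canonical transcript, and averaged over all libraries, the highest members were SLC3A2 (1480 normalized counts per kilobase), the taurine carrier SLC6A6 (1354), SLC43A3 (1153), the glutamine carrier SLC38A1 (1076), SLC7A2 (951) and the glutamine carrier SLC1A5 (801). They were followed by the cystine and glutamate exchanger SLC7A11 (297), SLC38A2 (198), SLC38A6 (96.8) and SLC38A9 (93.8). Over the joined length of all exons, 8 of these 10 were still among the first 10, with SLC7A5 and SLC7A6 in place of SLC38A6 and SLC38A9. Among the 31 tested members, 19 had a mean of at least 50 normalized counts, and 12 were listed at 0 in at least 1 library.

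**Figure D1:**
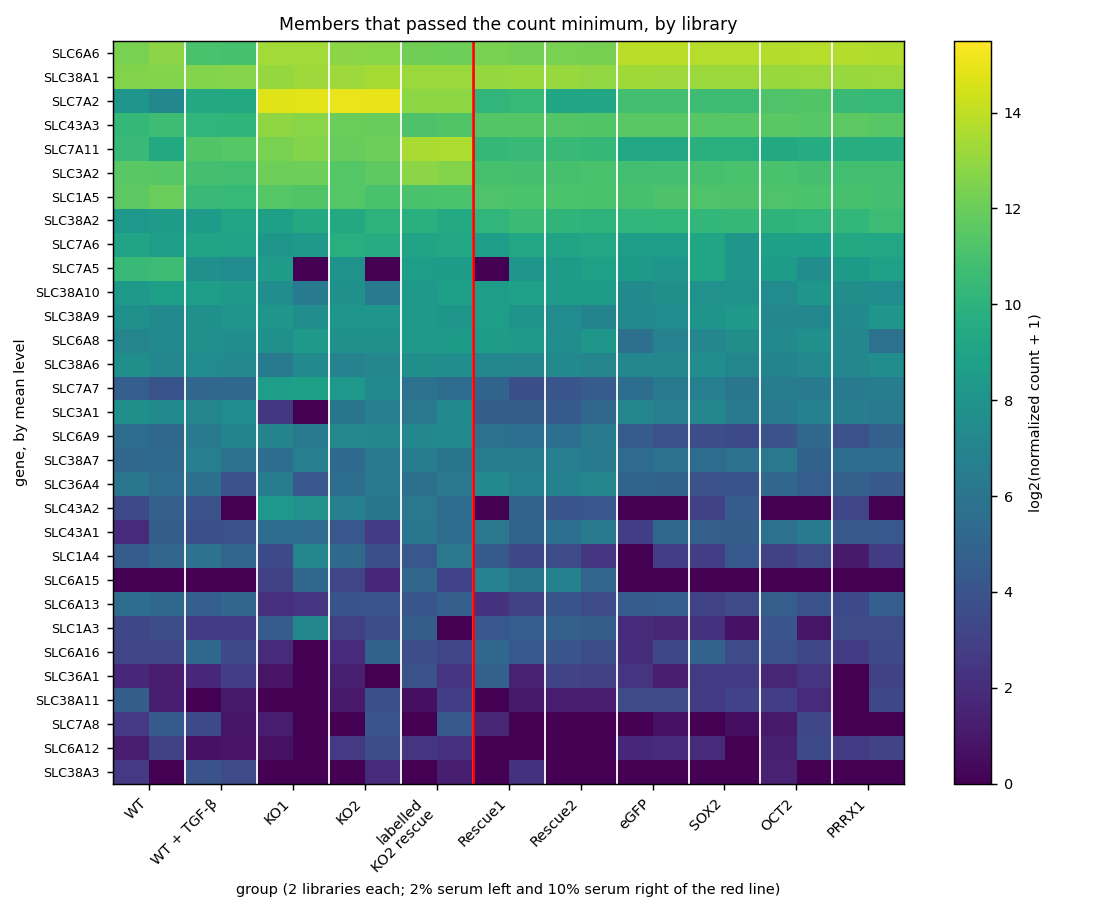
Levels of the 31 tested members as log2(normalized count + 1), with genes in rows by mean level and the 22 libraries in columns by group. SLC7A2 is brightest in the KO1 and KO2 libraries, SLC7A11 in those labelled KO2 rescue, and dark cells mark libraries where a gene is listed at 0, such as 3 libraries for SLC7A5.

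A gene was called when its limma adjusted p was below 0.05 and its level changed by more than 1 log2 unit either way. Folds are on the log2(normalized count + 1) scale, which understates changes of genes with few counts, ± marks the standard error (SE), and a value given for a call lost without a library is the limma adjusted p without it. In these terms, 21 of the 31 tested members were called in at least 1 of 12 comparisons. Against WT, 11 members were called in KO1, 8 higher and 3 lower, where 25% of all 14585 tested genes were called (12% higher and 13.1% lower). In KO2 there were 8, 7 higher and 1 lower, of a background of 16.3% (9.02% and 7.29%). TGF-β gave 5, 3 higher and 2 lower, with 7.84% (3.58% and 4.26%). The clones differed directly in 4 members, all lower in KO1, with 6.97% of all genes (2.48% and 4.49%). The mean of both clones differed from TGF-β in 10, 6 higher and 4 lower, with 20.2% (10.3% and 9.83%). Rescue1 and Rescue2 together differed from KO2 in 9, 3 higher and 6 lower, with 17.5% (7.84% and 9.65%), and from eGFP in 11, 6 higher and 5 lower, with 13.1% (6.47% and 6.66%). The libraries labelled KO2 rescue differed from KO2 in 5, 3 higher and 2 lower, with 4.17% (1.65% and 2.52%), and eGFP from WT in 6, 5 higher and 1 lower, with 12.7% (6.49% and 6.24%). The median log2 change of the tested members was 0.48 in KO1 and 0.229 in KO2, where that of all tested genes was 0 and 0.003, and it was 0 under TGF-β, as for all genes. It was -0.554 in eGFP against WT (0 for all genes), 0.552 for the clones against TGF-β (-0.016), -0.401 for the rescue clones against KO2 (-0.03) and 0.354 for them against eGFP (0). Members that passed the count minimum only through a group where they are high had to differ there, so these counts describe the list and do not set it apart from other genes.

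**Figure D2:**
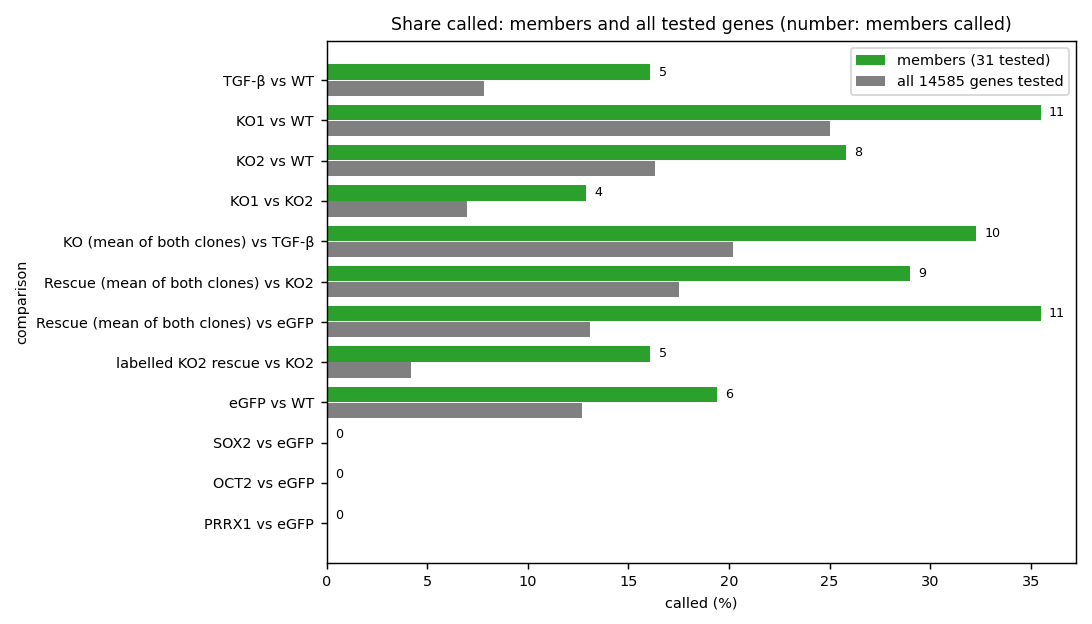
Percentage of the 31 tested members (green) and of all 14585 tested genes (grey) called in each of 12 comparisons, with the number of members called beside each green bar. KO1 against WT and rescue against eGFP have the most members called, 11 each, and the 3 ectopic lines against eGFP have 0.

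SLC7A2, a carrier of arginine, lysine and ornithine, had the largest rise of any member in both knockout clones. Its normalized counts were 265 and 147 in WT, 666 and 688 in TGF-β-treated cells, 27921 and 30444 in KO1 and 34089.5 and 32088 in KO2. Every knockout library thus lay far above every WT and TGF-β library. The rise over WT was 147-fold in KO1 (log2 change 7.20 ± 0.17, limma adjusted p = 2.42e-13) and 166-fold in KO2 (log2 change 7.38 ± 0.17, limma adjusted p = 3.29e-13). TGF-β raised it 3.41-fold (log2 change 1.77 ± 0.17, limma adjusted p = 5.72e-06), and the mean of both clones exceeded TGF-β 45.8-fold (log2 change 5.52 ± 0.15, limma adjusted p = 6.01e-13). The clones did not differ from each other by the test (log2 change -0.18 ± 0.17, limma adjusted p = 0.532).

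The level of SLC7A2 was lower than in KO2 in each line that carries a rescue label. The libraries labelled KO2 rescue did not hold more SETD2 transcript than KO2, so SETD2 was not seen to be put back there. The libraries labelled KO2 rescue held 7369 and 7433, Rescue1 1189.9 and 1339.8 and Rescue2 571 and 582. Rescue1 and Rescue2 lay 38.7-fold under KO2 (log2 change -5.28 ± 0.15, limma adjusted p = 2.76e-12) and the libraries labelled KO2 rescue 4.47-fold under it (log2 change -2.16 ± 0.17, limma adjusted p = 8.52e-07). In 10% serum, eGFP held 1815 and 1799, which was 9.1-fold above WT in 2% serum (log2 change 3.19 ± 0.17, limma adjusted p = 7.56e-09), and the rescue clones lay 2.12-fold under eGFP (log2 change -1.08 ± 0.15, limma adjusted p = 6.56e-05). After scaling all libraries to 1 total, that last log2 change was -0.97, short of the fold threshold. The other cationic carriers, SLC7A1, SLC7A3, SLC7A4 and SLC7A14, were under the count minimum, with SLC7A1 at no more than 7.83 in any library.

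**Figure D3:**
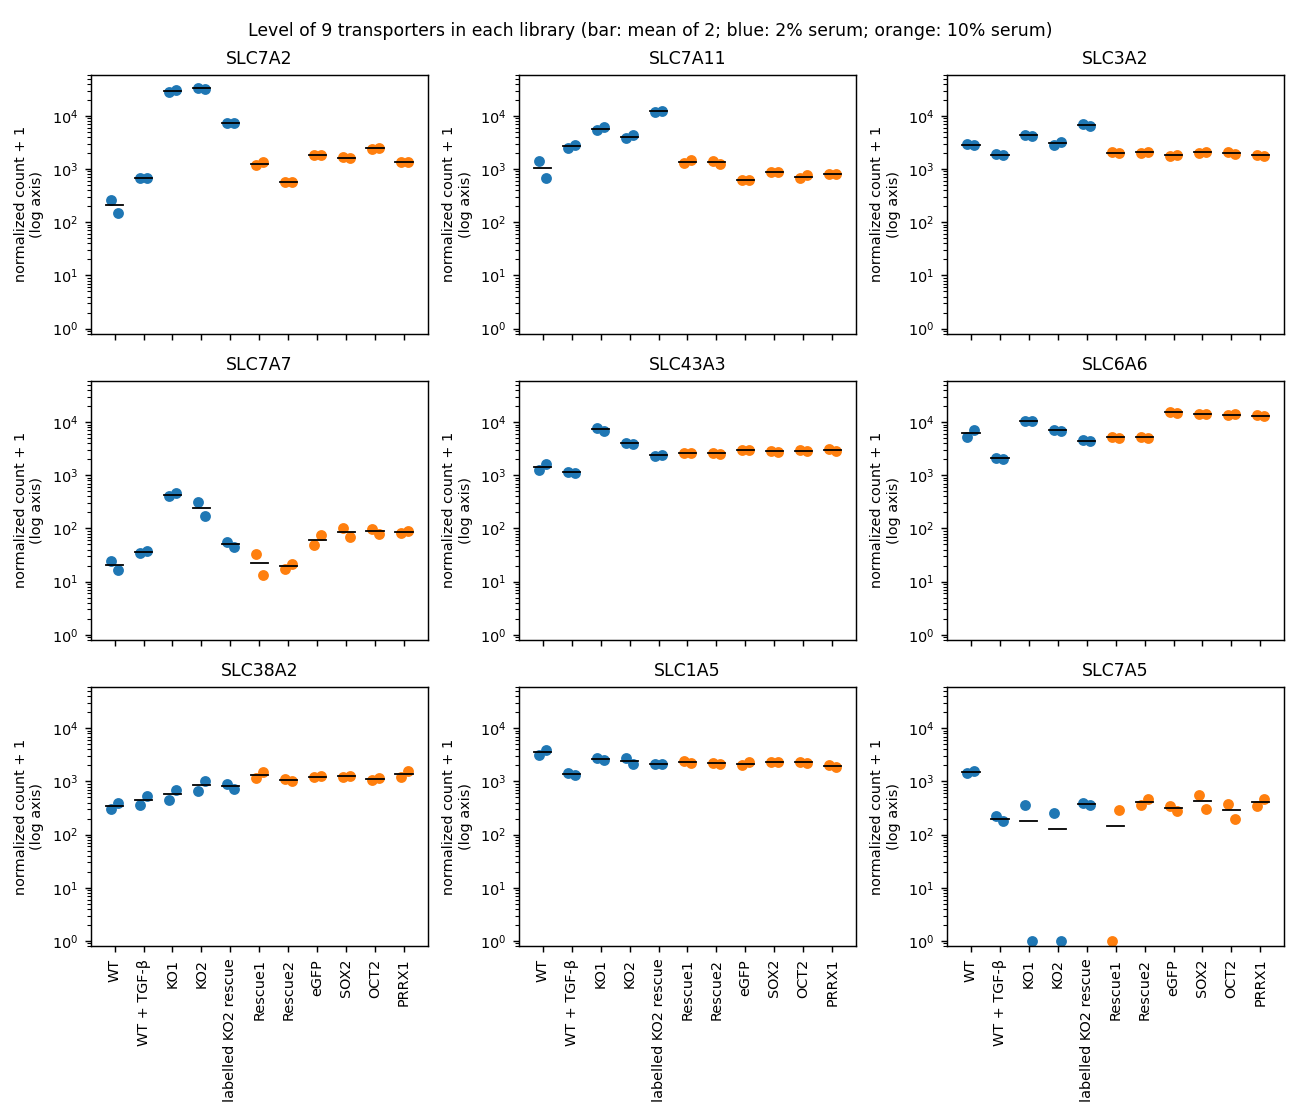
Normalized count + 1 (log axis) of 9 transporters in each library by group, with points for single libraries, a bar for the mean of 2, blue for 2% serum and orange for 10% serum. SLC7A2 and SLC7A7 are highest in KO1 and KO2, SLC7A11 and SLC3A2 in the libraries labelled KO2 rescue, SLC6A6 in the transduced WT lines, and SLC7A5 in untreated WT.

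SLC7A7, the light chain that exports dibasic amino acids in exchange for neutral ones, lies on chromosome 14 (minus strand, 22773222 to 22829820). Its level was far below that of SLC7A2. The libraries held 23.9 and 15.6 in WT, 33.1 and 36 in TGF-β-treated cells, 399.8 and 456 in KO1 and 312 and 171 in KO2. Both clones were above every WT and TGF-β library, by 21.1-fold over WT in KO1 (log2 change 4.40 ± 0.44, limma adjusted p = 1.44e-06) and 11.4-fold in KO2 (log2 change 3.51 ± 0.44, limma adjusted p = 2.23e-05). TGF-β did not pass the test (log2 change 0.80 ± 0.44, limma adjusted p = 0.267), and the mean of both clones lay 8.88-fold above it (log2 change 3.15 ± 0.38, limma adjusted p = 1.09e-05).

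In lines made from KO2, SLC7A7 was lower again, at 53.6 and 44.3 in the libraries labelled KO2 rescue, 31.5 and 12.1 in Rescue1 and 15.9 and 20.7 in Rescue2. The fall from KO2 was 11.7-fold for the rescue clones (log2 change -3.54 ± 0.38, limma adjusted p = 4.35e-06) and 4.66-fold for the libraries labelled KO2 rescue (log2 change -2.22 ± 0.44, limma adjusted p = 0.004), where leaving out KO2 replicate 1 gave an adjusted p of 0.0682. The rescue clones were also under eGFP, which held 46.8 and 74.5 (log2 change -1.60 ± 0.38, limma adjusted p = 0.00535), although this was 0.0832 without eGFP replicate 2. The rise of eGFP over WT (log2 change 1.56 ± 0.44, limma adjusted p = 0.0164) was not called without WT replicate 2 (0.118) or eGFP replicate 2 (0.127).

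SLC7A11, on chromosome 4 (minus strand, 138164097 to 138242349), is the light chain that imports cystine in exchange for glutamate, a step that feeds glutathione synthesis. Its libraries held 1399 and 682 in WT, 2488 and 2828 in TGF-β-treated cells, 5313 and 6203 in KO1, 3854 and 4321 in KO2 and 11851 and 12524 under the KO2 rescue label. The groups in 2% serum did not overlap, and those labelled KO2 rescue were the highest of all 22. The rise over WT was 5.87-fold in KO1 (log2 change 2.55 ± 0.22, limma adjusted p = 2.59e-07), 4.17-fold in KO2 (log2 change 2.06 ± 0.22, limma adjusted p = 4.2e-06) and 2.71-fold with TGF-β (log2 change 1.44 ± 0.22, limma adjusted p = 0.000298). Without WT replicate 2, the lower of the WT pair, the log2 change with TGF-β was 0.92 and no longer reached the fold threshold. The clones exceeded TGF-β by less than that threshold (log2 change 0.87 ± 0.19, limma adjusted p = 0.00211).

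From KO2, SLC7A11 moved in opposite directions in the lines that carry a rescue label. It was 2.98-fold higher in the libraries labelled KO2 rescue (log2 change 1.58 ± 0.22, limma adjusted p = 0.000216) and 3.01-fold lower in Rescue1 and Rescue2 (log2 change -1.59 ± 0.19, limma adjusted p = 1.17e-05), whose libraries held 1284 and 1466 and 1433 and 1254. The former share the 2% serum of KO2 and the latter do not. Against eGFP, at 631 and 629, the rescue clones were 2.15-fold higher (log2 change 1.10 ± 0.19, limma adjusted p = 0.000441).

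SLC3A2, the heavy chain of SLC7A5, SLC7A6, SLC7A7, SLC7A8 and SLC7A11, lies on chromosome 11 (plus strand, 62856004 to 62888880). It held 2911 and 2844 in WT, 1925 and 1814 in TGF-β-treated cells, 4367 and 4263 in KO1, 2779 and 3292 in KO2 and 7099 and 6442 in the libraries labelled KO2 rescue. Like SLC7A11, it was highest under that label, where it was 2.24-fold above KO2 (log2 change 1.16 ± 0.08, limma adjusted p = 1.92e-07). Its changes from WT passed the adjusted threshold but not the fold in KO1 (log2 change 0.58 ± 0.08, limma adjusted p = 3.37e-05) and with TGF-β (log2 change -0.62 ± 0.08, limma adjusted p = 7.53e-05), and KO2 did not pass (log2 change 0.07 ± 0.08, limma adjusted p = 0.57). The 8 transduced WT libraries lay between 1778 and 2121, and the 4 rescue clone libraries between 1983 and 2099.

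SLC7A5, the light chain that exchanges leucine and other large neutral amino acids for glutamine, was highest in untreated WT. WT held 1474 and 1577, and every other library held between 0 and 550.0, with 222 and 177 under TGF-β. It was listed at 0 in KO1 replicate 2, KO2 replicate 2 and Rescue1 replicate 1, whose duplicates held 356, 253 and 295. An exact 0 beside such a duplicate can be a failed estimate, and each library had 10 to 57 genes at 0 that were at 100 or more in its duplicate. SLC7A5 was called in no comparison. The limma adjusted p was 0.0755 in KO1, 0.0829 in KO2 and 0.55 with TGF-β. All groups share the same estimate of the spread in this fit, so the libraries listed at 0 widen it in every comparison. The value with TGF-β therefore does not show an absence of change, as both of its libraries lay far below WT. Since reads of this gene can be shared with near-identical pseudogenes, its level is uncertain.

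SLC7A6, a light chain of the same transport type as SLC7A7, separated the clones. KO1 held 289 and 316 and KO2 865 and 769.8, on either side of WT at 531 and 394. KO1 lay 2.69-fold under KO2 (log2 change -1.43 ± 0.25, limma adjusted p = 0.00106), while neither clone was called against WT (log2 change -0.60 ± 0.25, limma adjusted p = 0.0687 in KO1, and log2 change 0.83 ± 0.25, limma adjusted p = 0.0187 in KO2). SLC7A8 did not exceed 20.1 in any library and was called nowhere.

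SLC3A1, the heavy chain of the apical cystine and dibasic amino acid carrier, fell in KO1. Its libraries held 209.6 and 167 in WT, 132 and 181 in TGF-β-treated cells, 4.61 and 0 in KO1 and 64.5 and 106 in KO2. The fall in KO1 was called (limma adjusted p of 1.46e-06). With KO1 at 0 and at a few normalized counts, the size of the change depends on the pseudocount and no fold is given. Without KO1 replicate 2, which is listed at 0, the log2 change was -5.06 and still called. KO2 was not called (log2 change -1.17 ± 0.63, limma adjusted p = 0.198), and KO1 lay under KO2 (limma adjusted p of 6.41e-05), also without KO1 replicate 2 (log2 change -3.90). The light chain partner of SLC3A1, SLC7A9, was under the count minimum and did not exceed 3.5.

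SLC3A1 was low again in Rescue1 and Rescue2, at 23 and 23 and 20.1 and 34.5. That was under KO2 (log2 change -1.71 ± 0.55, limma adjusted p = 0.0257) and under eGFP, at 140.4 and 102 (log2 change -2.23 ± 0.55, limma adjusted p = 0.00632). The first of these calls was lost without either KO2 library (0.054 and 0.203) or without Rescue2 replicate 1 (0.071), and the second without eGFP replicate 1 (0.0772). The libraries labelled KO2 rescue held 73.2 and 159.9 and were not called against KO2.

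The SLC43 family carries large neutral amino acids (SLC43A1 and SLC43A2) and purine nucleobases (SLC43A3), and all 3 members were called in KO1. SLC43A3, on chromosome 11 (minus strand, 57406954 to 57427580), held 1276 and 1638 in WT, 1169 and 1118 in TGF-β-treated cells, 7713 and 6946 in KO1 and 4124 and 3839 in KO2. It rose over WT 5.06-fold in KO1 (log2 change 2.34 ± 0.09, limma adjusted p = 5.53e-11) and 2.75-fold in KO2 (log2 change 1.46 ± 0.09, limma adjusted p = 2.02e-08), and the clones were 4.72-fold above TGF-β (log2 change 2.24 ± 0.08, limma adjusted p = 1.74e-11). The 12 libraries in 10% serum lay between 2549 and 3102, above WT and below KO2. In them eGFP was 2.04-fold over WT (log2 change 1.03 ± 0.09, limma adjusted p = 1.58e-06), just past the fold threshold, with a log2 change of 0.85 without WT replicate 1, 0.99 at the same total per library and 0.97 after quantile normalization.

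SLC43A2 was at 9.99 and 24.5 in WT, 14.6 and 0 in TGF-β-treated cells, 309.8 and 231 in KO1 and 109 and 62.7 in KO2. KO1 was therefore the highest group, with no overlap with any other. Its call against WT (log2 change 4.0 ± 1.45, limma adjusted p = 0.04) was lost without any of the 4 libraries (adjusted p of 0.0686 to 0.176), and leaving out the first or the second WT library gave log2 changes of 3.40 and 4.61. The call of the clones against TGF-β (limma adjusted p of 0.00413) rested on TGF-β replicate 2, the library listed at 0, without which the log2 change was 3.27 and the adjusted p 0.119. SLC43A1 held 2.73 and 22.6 in WT and 43.1 and 42.2 in KO1, and its call in KO1 (log2 change 2.22 ± 0.84, limma adjusted p = 0.0495) rested on WT replicate 1, without which the log2 change was 0.89. Without WT replicate 2 it was 3.55. SLC43A1 was higher in the rescue clones, at 70.6 and 30.2 and 50.1 and 81.3, than in KO2, at 17.1 and 5.66 (log2 change 2.33 ± 0.73, limma adjusted p = 0.0224), with a log2 change of 3.06 without KO2 replicate 1. That call was lost without KO2 replicate 2 (log2 change 1.61, 0.241), Rescue1 replicate 1 (0.0661) or Rescue2 replicate 2 (0.0599).

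**Figure D4:**
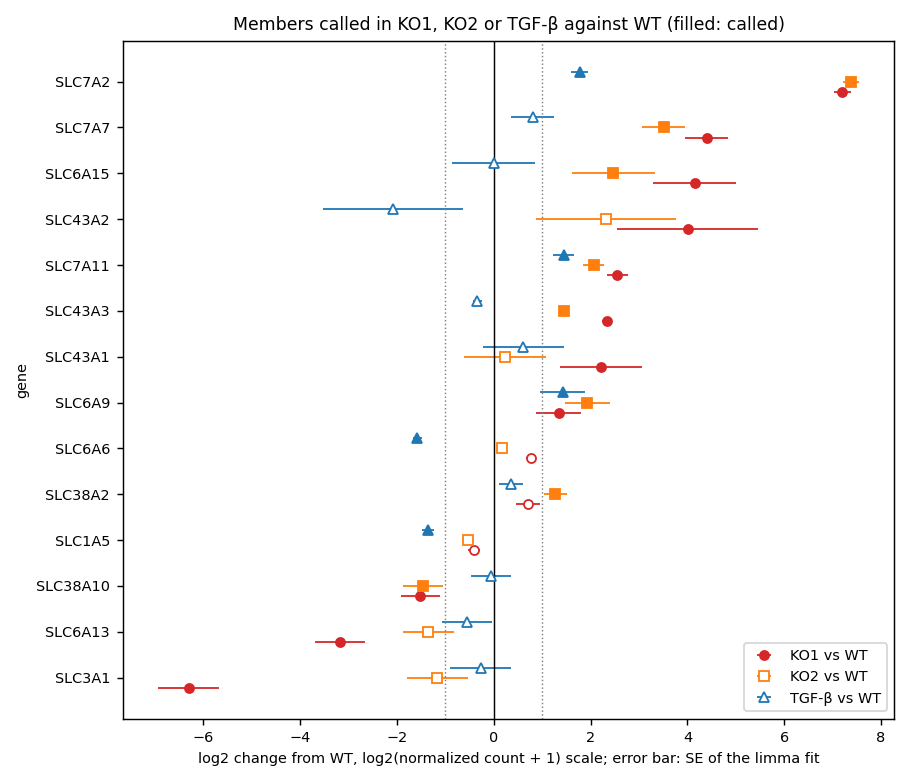
Log2 change from WT, with the standard error of the limma fit as bars, of the 14 members called in KO1 (circles), KO2 (squares) or with TGF-β (triangles). Filled symbols are called, and dotted lines mark the fold threshold of 1. SLC7A2 lies beyond 7 in both clones, and SLC6A6 and SLC1A5 are called lower with TGF-β and in neither clone. The positions of SLC3A1 in KO1, SLC6A15, and SLC43A2 with TGF-β depend on the pseudocount, since they rest on libraries listed at 0.

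SLC6A6, the sodium-coupled taurine carrier, lies on chromosome 3 (plus strand, 14402576 to 14489349). It fell with TGF-β, from 5318 and 7194 in WT to 2117 and 2019.9, a 2.99-fold decrease (log2 change -1.58 ± 0.10, limma adjusted p = 5.1e-08). KO1 held 10438 and 10518 and KO2 7112 and 6807, neither of them called against WT (log2 change 0.76 ± 0.10, limma adjusted p = 1.31e-05 in KO1, and log2 change 0.17 ± 0.10, limma adjusted p = 0.211 in KO2). The mean of both clones was 4.13-fold above TGF-β (log2 change 2.05 ± 0.08, limma adjusted p = 5.01e-11).

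Its highest levels were in the 8 transduced WT libraries, from 12955 to 15396 with a median of 14061, none of which overlapped with the 4 rescue clone libraries at 5006 to 5303. Both sets were grown in the same serum. The rescue clones were 2.94-fold under eGFP (log2 change -1.55 ± 0.08, limma adjusted p = 3.4e-09), and eGFP was 2.46-fold over WT (log2 change 1.30 ± 0.10, limma adjusted p = 1.88e-07).

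The carriers of GABA, betaine and creatine were lower. SLC6A13, which carries GABA and taurine in kidney and liver, held 46.1 and 37.4 in WT, 3.2 and 4.24 in KO1 and 15.2 and 16.2 in KO2. It fell in KO1 (log2 change -3.18 ± 0.52, limma adjusted p = 0.000175) and was not called in KO2 (log2 change -1.35 ± 0.52, limma adjusted p = 0.0672). KO1 was below KO2 (log2 change -1.83 ± 0.52, limma adjusted p = 0.0271), a call that was lost without any of the 4 libraries (adjusted p of 0.0549 to 0.124). Against TGF-β, at 23.8 and 33, the clones were lower (log2 change -1.72 ± 0.45, limma adjusted p = 0.00767), which was 0.0855 without TGF-β replicate 2. The rescue clones were below eGFP (log2 change -1.34 ± 0.45, limma adjusted p = 0.037), which was lost without any of 4 libraries (Rescue1 replicate 1, Rescue2 replicate 2 and either eGFP library, 0.0903 to 0.153).

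SLC6A12, the betaine and GABA carrier that neighbours SLC6A13 on chromosome 12, was at 0.623 and 0 in KO1 and 4.96 and 11.9 in KO2 and was listed at 0 in all 4 rescue clone libraries. Both comparisons with KO2 were called (limma adjusted p of 0.0355 and 0.00358), but with at most 11.9 normalized counts anywhere no fold is given, and neither was called without KO2 replicate 2 (0.222 and 0.0614). The creatine carrier SLC6A8, whose reads can be shared with a near-identical pseudogene, was 3.61-fold higher in the rescue clones, at 375 and 325 in Rescue1 and 189.9 and 288 in Rescue2, than in eGFP, at 52.4 and 117 (log2 change 1.85 ± 0.37, limma adjusted p = 0.00134). Without eGFP replicate 1 its log2 change was 1.28, with an adjusted p of 0.0503.

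SLC6A9, the glycine carrier that ends glycine signalling and feeds glycine into cells, was higher than WT in the 3 groups that were set against it in 2% serum. It held 43 and 35.6 in WT, 88 and 129 in TGF-β-treated cells, 123 and 81.9 in KO1 and 155 and 149 in KO2. The rise was 3.82-fold in KO2 (log2 change 1.93 ± 0.46, limma adjusted p = 0.00512) and held without any library. It was close to the threshold in KO1 (log2 change 1.34 ± 0.46, limma adjusted p = 0.0324) and with TGF-β (log2 change 1.42 ± 0.46, limma adjusted p = 0.0473). In KO1 it was lost without either WT library (0.0691 and 0.134) or KO1 replicate 1 (0.155), and with TGF-β without any of the 4 libraries (0.081 to 0.255).

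The rescue clones were below KO2 in SLC6A9, at 57.4 and 49 and 48.8 and 80.6 (log2 change -1.38 ± 0.40, limma adjusted p = 0.0148), and above eGFP, at 21.3 and 13.5 (log2 change 1.71 ± 0.40, limma adjusted p = 0.00474). The first was lost without either KO2 library (0.0902 and 0.0758) and the second without eGFP replicate 2 (0.068). The libraries labelled KO2 rescue stayed at 149.7 and 169.9, in the range of KO2.

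SLC6A15, a sodium-coupled carrier of branched-chain amino acids and proline, was listed at 0 in all 12 WT-derived libraries that were not edited, with or without TGF-β or transduction. Values above 0 appeared in KO1 (7.41 and 36.3), KO2 (8.47 and 2.24), the libraries labelled KO2 rescue (33 and 7.7), Rescue1 (114 and 65.2) and Rescue2 (111 and 32.7). All 10 libraries of edited clones and their derivatives were therefore above 0. No fold is given against groups listed at 0. It reached the count minimum only through edited lines, which favours a difference from unedited ones. Its calls in KO1, KO2, the clones against TGF-β and the rescue clones against eGFP are counted above but not read. The call in KO2 was also lost without either WT library or without KO2 replicate 1. Unlike SLC7A2 and SLC7A7, SLC6A15 was higher in the rescue clones than in KO2 (log2 change 3.73 ± 0.74, limma adjusted p = 0.0012), with log2 changes of 4.50 without KO2 replicate 1 and 2.95 without KO2 replicate 2. SLC6A16, an SLC6 member without an assigned substrate, did not exceed 35.9.

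SLC1A5, the exchanger of glutamine, alanine, serine and cysteine, lies on chromosome 19 (minus strand, 46774883 to 46788594). It fell with TGF-β, from 3124 and 3947 in WT to 1427 and 1324, by 2.55-fold (log2 change -1.35 ± 0.12, limma adjusted p = 2.87e-06). KO1 held 2762 and 2542 and KO2 2748 and 2143, lower than WT by less than the fold threshold (log2 change -0.41 ± 0.12, limma adjusted p = 0.016 in KO1, and log2 change -0.53 ± 0.12, limma adjusted p = 0.00389 in KO2). The TGF-β libraries were the lowest of all 22. In 10% serum the 12 libraries lay between 1832 and 2426.

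The related SLC1A4 was called in eGFP against WT only, from 21.9 and 34.3 to 0 and 6.11 (limma adjusted p of 0.0457), a call lost without either WT library (0.0964 and 0.177) or eGFP replicate 1, the library listed at 0 (log2 change -2.0, 0.371). The glutamate carrier SLC1A3 reached 21.9 and 143 in KO1 and at most 26.3 elsewhere, and was called nowhere.

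Among sodium-coupled carriers of neutral amino acids, SLC38A1 was the highest, from 6041 to 10789 in 2% serum, and it was called in no comparison. WT held 6041 and 6289.6, KO1 8354 and 9692 and KO2 9746 and 10789, so that the clones did not overlap with WT, by changes under the fold threshold (log2 change 0.55 ± 0.07, limma adjusted p = 1.8e-05 in KO1, and log2 change 0.73 ± 0.07, limma adjusted p = 1.44e-06 in KO2). SLC38A2, whose expression is known to answer amino acid supply, lies on chromosome 12 (minus strand, 46358188 to 46372773). It rose from 305 and 386 in WT to 672 and 1028 in KO2 (log2 change 1.27 ± 0.24, limma adjusted p = 0.000997), with a log2 change of 0.97 without KO2 replicate 2, and was at 455 and 693 in KO1 (log2 change 0.71 ± 0.24, limma adjusted p = 0.0319).

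For SLC38A2, the 12 libraries in 10% serum held 1034 to 1562 and the 10 in 2% serum 305 to 1028. The sets were adjacent but did not overlap, and eGFP was 3.56-fold over WT (log2 change 1.83 ± 0.24, limma adjusted p = 5.87e-05). Serum and transduction differed together in that comparison and cannot be told apart.

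SLC38A10 was the only member called lower in both clones. It lies on chromosome 17 (minus strand, 81244811 to 81295547) and held 326 and 427 in WT, 393 and 327 in TGF-β-treated cells, 196 and 85.7 in KO1 and 218 and 82.8 in KO2. The changes from WT were similar (log2 change -1.52 ± 0.41, limma adjusted p = 0.00818 in KO1, and log2 change -1.46 ± 0.41, limma adjusted p = 0.0136 in KO2) and leaned on the lower library of each clone. Without KO1 replicate 2 the log2 change was -0.92 and without KO2 replicate 2 it was -0.77, and neither was then called. Without replicate 1 of the clone they were -2.11 and -2.16. Without WT replicate 2 the adjusted p was 0.0625 in KO1 and 0.0935 in KO2.

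In the lines made from KO2, SLC38A10 was in or near the range of WT, at 333 and 433 in the libraries labelled KO2 rescue, 399 and 466 in Rescue1 and 362 and 384 in Rescue2. The libraries labelled KO2 rescue did not hold more SETD2 transcript than KO2. Unedited eGFP cells, at 161 and 206, lay below both WT libraries and within the range of the clones, without a call against WT. Each set was above KO2 (log2 change 1.49 ± 0.41, limma adjusted p = 0.0309 for the libraries labelled KO2 rescue, and log2 change 1.57 ± 0.35, limma adjusted p = 0.00297 for the rescue clones). Without KO2 replicate 2 these log2 changes were 0.79 and 0.87 and were not called, whereas without KO2 replicate 1 they were 2.18 and 2.26, and the first was also lost without either library labelled KO2 rescue (0.076 and 0.198). The rescue clones exceeded eGFP, at 161 and 206 (log2 change 1.13 ± 0.35, limma adjusted p = 0.0249), a call lost without replicate 2 of either rescue clone (0.0588 and 0.0537) or without either eGFP library (0.193 and 0.0616).

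Over all libraries, SLC38A9, a lysosomal arginine carrier and sensor upstream of mTORC1, lay between 123 and 405, both in rescue clones, SLC38A6 between 86.8 and 210.1, and SLC38A7 between 26.6 and 103. These and SLC38A11 were called nowhere. SLC38A3 was above 3 normalized counts in the TGF-β libraries (14.7 and 10.5), 1 WT library and 1 Rescue1 library, and was listed at 0 in both KO1 libraries. It passed the count minimum through the TGF-β libraries alone, so a difference from them was built in and its test is not read. Of the proton-coupled SLC36 carriers, SLC36A4 was called in the rescue clones, at 159.8 and 109 and 111 and 134, against eGFP, at 31.1 and 27.6 (log2 change 2.08 ± 0.59, limma adjusted p = 0.015), which was lost without either eGFP library (0.0764 and 0.0884). SLC36A1 did not exceed 25.7 and was called nowhere.

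Ectopic SOX2, OCT2 and PRRX1 were set against eGFP to ask what these factors change in WT cells in the same serum. No member was called by limma for any of them. The background was 0.0206% of all genes called for SOX2 (0.0137% higher and 0.00686% lower), 0.0343% for OCT2 (0.0274% and 0.00686%) and 0.0411% for PRRX1 (0.0343% and 0.00686%). An unadjusted p under 0.05 was reached by 5 members with SOX2, 3 with OCT2 and 3 with PRRX1, and by 6.76%, 7.03% and 4.61% of all tested genes. SLC7A2 was at 1672 and 1588 with SOX2, 2389 and 2509 with OCT2 and 1370.1 and 1357 with PRRX1, and the largest of these differences from eGFP did not pass (log2 change 0.44 ± 0.17, limma adjusted p = 0.622 for OCT2). SLC7A11 was at 898 and 894, 678 and 765 and 821 and 822 in the same order, with differences from eGFP that did not pass either (log2 change 0.51 ± 0.22, limma adjusted p = 0.705 for SOX2).

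KO1, KO2, TGF-β and eGFP were set against the same WT libraries, and the rescue clones against the KO2 libraries of the KO2 comparison. Agreement between these comparisons is favoured by the shared libraries and is not counted as a result. Called higher in both clones were SLC7A2, SLC7A7, SLC7A11, SLC6A9, SLC43A3 and SLC6A15, the last by tests that are not read. Of these, SLC43A3 was lower in the rescue clones than in KO2 by less than the fold threshold (log2 change -0.60 ± 0.08, limma adjusted p = 3.9e-05).

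Genes around these carriers were read from lists of general knowledge. Of 25 tested genes of the amino acid response, 7 were higher and 3 lower in KO1, with a median log2 change of 0.314. In KO2 6 were higher and 0 lower (median 0.455), with TGF-β 1 was higher and 2 lower (median -0.125), and in eGFP against WT 5 were higher and 2 lower (median 0.045). The shares called among all tested genes, which apply to each list here, were 12% higher and 13.1% lower in KO1, 9.02% and 7.29% in KO2, 3.58% and 4.26% with TGF-β and 6.49% and 6.24% in eGFP, with medians of 0.003 in KO2 and 0 in the others. CEBPB, a transcription factor of this response, went from 386 and 287 in WT to 2842 and 2795 in KO1 and 1439.9 and 1313 in KO2, and was also called higher in eGFP, at 987 and 879.6. ATF5 went from 73 and 70.6 in WT to 379 and 499 in KO1 and 278 and 164 in KO2, with 51.4 and 39 in eGFP. ATF4, which drives the response mainly through its translation, was at 8279 and 8581 in WT, 8991 and 7563 in KO1 and 8634 and 8274 in KO2 and was called in neither clone. The asparagine synthetase ASNS and the serine synthesis enzymes PHGDH and PSPH, targets of the same response, were the 3 called lower in KO1 (log2 changes of -1.23, -1.37 and -1.02). Of the enzymes that make amino acids on this list, ALDH18A1 (in KO1) and CBS (in both clones) were called higher.

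Of 18 tested cytosolic aminoacyl-tRNA synthetases, which load amino acids onto tRNA, 0 were called in KO1 and 1 (RARS1, higher) in KO2 and with TGF-β, with median log2 changes of -0.389, -0.066 and -0.051. In eGFP 2 were higher and 1 lower (median -0.176). For KO1, where the count by limma is 0, 8 of the 18 had an unadjusted p under 0.05, as had 47.3% of all tested genes. Of 24 tested enzymes of glutamine, glutamate, cysteine and arginine metabolism, 6 were higher and 4 lower in KO1 and 6 higher and 2 lower in KO2 (medians 0.135 and 0.241), against 1 higher and 3 lower with TGF-β (median -0.006) and 4 higher and 1 lower in eGFP (median 0.021). ASS1, ODC1 and SAT1 are described here, chosen after their values were seen. All 3 were called higher in both clones and in unedited eGFP cells against WT. ASS1, which makes argininosuccinate, held 80.8 and 50.8 in WT, 1159 and 989 in KO1, 1007 and 878 in KO2, 395 and 419 in eGFP, 33.6 and 20.4 in Rescue1 and 23.8 and 20.7 in Rescue2. ODC1, which turns ornithine into putrescine, held 570.0 and 581, 5047 and 4517, 3258 and 3264, 1429.7 and 1307, 922 and 976 and 951 and 975 in the same order of groups. SAT1, which acetylates polyamines, held 6719 and 5377, 44949.6 and 40865, 42604 and 41598, 28132 and 26942, 3979.8 and 4055 and 2589 and 2554 in that order too. The libraries labelled KO2 rescue, whose SETD2 transcript was no higher than that of KO2, held 140 and 124 of ASS1. They held 1024 and 1005 of ODC1 and 8806 and 8708 of SAT1. All 3 were called lower than in KO2 there, as they were in Rescue1 and Rescue2.

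GAMT, the last enzyme of creatine synthesis, was lower in both clones, at 279.6 and 273 in WT, 75.1 and 79.3 in KO1 and 68.9 and 74.6 in KO2. It was at 67.9 and 56 in the libraries labelled KO2 rescue, 339 and 263 in Rescue1, 336 and 359 in Rescue2 and 215 and 196 in eGFP. Of 13 tested partner proteins and other carriers, 1 was higher in KO1, 2 in KO2 and 3 in eGFP (medians 0.003, -0.069 and -0.144), with SLC15A4, a lysosomal carrier of histidine and peptides, called in all 3 (log2 changes of 1.83, 1.44 and 1.16).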

How the data were processed

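RNA-seq was performed on 22 libraries (TruSeq Stranded mRNA, paired-end) of RPTEC in 11 groups of 2, taken from the labels. The labels do not say that replicates were separate cultures, so p-values measure the spread between these libraries, which may be technical. The authors quantified transcripts with Salmon 1.9.0 against GRCh38 cDNA from Ensembl (release 94), and the authors' differential analysis used DESeq2 1.26.0 (versions from the submitters' processing notes). They deposited log2 values for 36859 genes, from 11.32, shared by all libraries as the lowest, to 21.28. These are read here as variance-stabilized values, with the lowest value set to a count of 0. That 0 is part of the inverse and so does not bear on the reading. The inverse gave totals of 11674491 to 16758645 normalized counts per library. The reading remains an assumption, on which the normalized counts here rest. The transformation was inverted. Whole reads were not recovered, as 12.8% to 25.4% of low values (up to 40) came within 0.05 of a whole number of reads, so counting intervals are not given and the depth, roughly 7500000 to 18200000 reads, is uncertain. It limits genes with few counts. Symbols and coordinates are from GENCODE 44 (33878 of 36859 genes matched) and promoters from RefSeq.

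Log2(normalized count + 1) was fitted with limma 3.58.1 (R 4.3.3, variance trend) over all 22 libraries, as group means without covariates, for the 14585 genes that reached 10 normalized counts in 2 or more libraries. Benjamini-Hochberg adjustment was over those genes in each of 12 comparisons. Calls needed an adjusted p below 0.05 and a change of more than 1 log2 unit. The fit was tested on simulated data. The R package data.table (1.17.8), numpy 2.4.6 and pandas 2.3.3 under Python 3.11.15, and matplotlib 3.10.9 served for data handling and drawing.

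Per-library values are given for members called in at least 1 comparison, and in any case for SLC1A5, SLC3A2, SLC7A5, SLC7A11, SLC6A19, SLC6A20 and SLC38A2. Other tested members are given by range and those under the minimum by name, apart from items that are not reported here. Members and lists were chosen with earlier results of these data known. Results were recomputed at other pseudocounts (0.5 and 5), without the minimum or with a mean of 50, after quantile normalization or scaling to 1 total, on the libraries compared alone, with a replicate block, on the deposited log2 values, and leaving out each library. Duplicates differed by a median absolute log2 of 0.0635 to 0.174 for genes with at least 1000 normalized counts, where counting noise gives 0.031 to 0.0319, so no library was counted as a repeat of another.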

Additional observations from a re-analysis of the deposited data

Results flagged for a closer look

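The change from WT differed between the clones, by the direct test of KO1 against KO2, for 4 members. The KO1 change minus the KO2 change was -5.14 on the log2 scale for SLC3A1 (limma adjusted p = 6.41e-05), -2.78 for SLC6A12 (0.0355), -1.83 for SLC6A13 (0.0271) and -1.43 for SLC7A6 (0.00106). The values of SLC3A1 and SLC6A12 depend on the pseudocount. For SLC3A1, KO1 held 4.61 and 0 normalized counts, and the value was -3.90 without KO1 replicate 2, the library listed at 0. For SLC6A12, which had few counts, it was -1.29 with a pseudocount of 5 (limma adjusted p = 0.0515). Its call was also lost after quantile normalization (limma adjusted p = 0.104). SLC3A1 and SLC7A6 kept this call without any of the 4 libraries, whereas that of SLC6A13 was lost without each of them in turn and that of SLC6A12 without KO1 replicate 2 (0.158) or either KO2 library (0.0533 and 0.222). Each clone is a single one, so clone and genotype cannot be told apart here.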

How the results depend on the processing

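Under no alternative did a called member change direction. The number of members called fell with a mean of at least 50 normalized counts to 7 in KO1, 2 between the clones and 6 for the clones against TGF-β, where fewer genes are tested, and after quantile normalization to 2 between the clones. With only the libraries compared in the fit, which leaves fewer libraries to estimate the spread, it was 0 with TGF-β, 7 in KO1, 4 in KO2, 0 between the clones and 3 for the libraries labelled KO2 rescue against KO2, and 42 of the 69 calls were kept. On the deposited log2 values, whose scale compresses changes by construction, it was 0 with TGF-β, 3 in KO1, 1 in KO2, 0 between the clones, 3 for the clones against TGF-β, 1 for the rescue clones against KO2, 1 against eGFP, 2 for the libraries labelled KO2 rescue and 0 for eGFP against WT, although 64 of the 69 calls kept an adjusted p under 0.05. Leaving out each library gave 3 to 5 with TGF-β (3 without WT replicate 2), 8 to 11 in KO1, 6 to 8 in KO2, 2 to 4 between the clones (2 without KO1 replicate 2 or KO2 replicate 2), 8 to 12 for the clones against TGF-β, 4 to 11 for the rescue clones against KO2 (4 without KO2 replicate 2), 6 to 11 for them against eGFP (6 and 7 without eGFP replicate 1 and 2), 4 for the libraries labelled KO2 rescue, 4 to 6 for eGFP against WT and 0 for each ectopic line. A lone library is then assumed to vary like the other groups. Pseudocounts of 0.5 and 5 kept 65 and 66 of the 69 calls, no filter 62, quantile normalization 62 and the same total 62. The same total moved the median of all genes by -0.199 with TGF-β, -0.392 in KO1, -0.207 in KO2, -0.177 between the clones and 0.286 for the rescue clones against KO2, and ended the calls of SLC6A9 (TGF-β and KO1), SLC43A1 and SLC43A2 (KO1), SLC7A2 and SLC6A13 (rescue clones against eGFP) and SLC43A3 (eGFP against WT). Replicate numbers did not pair the libraries, as correlations of same-numbered deviations ran from -0.143 to 0.0955. With the replicate block, 4 members were called with TGF-β, 10 in KO1, 8 in KO2, 4 between the clones, 10 for the clones against TGF-β, 9 and 11 for the rescue clones against KO2 and eGFP, 5 for the libraries labelled KO2 rescue, 6 for eGFP and 0 for each ectopic line. The crossed pairing for TGF-β against WT, chosen after the data were seen, gave 4. Genes with few counts, such as SLC6A12, SLC6A15 and SLC38A3, are limited by depth.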
